A study of Mus musculus with 12 samples.

Results

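The MHC class I heavy chains are the polymorphic membrane proteins that, paired with β2-microglobulin, display peptides at the surface of nearly every nucleated cell. The genes described here were the rows of 8 symbols in a table of read counts, namely the classical H2-K1 and H2-D1 and the non-classical H2-Q4, H2-Q5, H2-Q6, H2-Q7, H2-T22 and H2-T23, out of 23472 genes in all. Classical chains present peptides to cytotoxic T cells, whereas most non-classical chains vary little between individuals and show a narrower set of ligands to natural killer cells or specialised T cells. Class I genes are a textbook target of interferon: receptors for both interferon types signal through the kinase JAK1 to STAT transcription factors, which act on class I promoters directly and through the regulators IRF1 and NLRC5.

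The RNA was that of LT-HSCs, the long-term haematopoietic stem cells on which lifelong blood formation rests, from bone marrow of C57BL/6 mice. The Jak1 KO group held 6 libraries from cre-positive mice, and the wt group held 6 libraries from cre-negative mice. Both groups had received 4 doses of poly(I:C), an interferon-inducing double-stranded RNA given to trigger the deletion, between 4 and 6 weeks before the marrow was taken. Cre was therefore present in the Jak1 KO group alone, and an effect of cre cannot be told apart from one of the deletion. The sources used here do not give the age of the mice, the deleted stretch of Jak1 or the gates used for sorting. Library names fell into VD and ZL names, with 3 libraries per genotype in each (VD for replicates 1 to 3, ZL for replicates 4 to 6). The VD names also carry the mark MXplus in Jak1 KO and MXminus in wt, and the ZL names carry no such mark. What distinguishes the names is not stated, so they are called name sets. The labels do not say whether replicates were separate animals, so p-values measure only the spread among these libraries, some of which may be technical. In bulk RNA, fewer cells of a type and less RNA per cell cannot be told apart.

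Total counts were 8989965 to 28701855 in Jak1 KO libraries and 9824802 to 28261886 in wt libraries. All 9 LT-HSC markers (Procr, Slamf1, Mecom, Hlf, Fgd5, Hoxb5, Kit, Tek and Meis1) were counted, with a summed level of 1345 to 3520 CPM (counts normalised to library size) in Jak1 KO and 1907 to 3740 CPM in wt libraries. Jak1 itself had 246 to 727 CPM in Jak1 KO and 321 to 435 CPM in wt libraries. The library Jak1 KO 4, at 246 CPM, was below every wt library, and the other 5 Jak1 KO libraries had 94.7% to 179% of the wt mean of their name set. Since the gene-level count does not show whether the deleted exons were read, it gives no check of the label. Jak1 KO 4 also differed otherwise: in voom it had the lowest quality weight of the 12, at 0.165, with wt 6 next at 0.215. Relative to its name set mean, the longest genes of Jak1 KO 4 lay below the shortest by a shift of -1.27 in log2. Longest and shortest mean the upper and lower 25% by exon length, and the other libraries had shifts of -0.18 to 0.62. Results for the chains that rest on Jak1 KO 4 are given with and without it.

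All 8 genes lie on chromosome 17 of the GRCm38 assembly (mm10). In GENCODE, H2-K1 spans chr17:33996017-34000347 on the minus strand, H2-D1 spans chr17:35262730-35267499 on the plus strand, and the Q genes follow on the plus strand from H2-Q4 at chr17:35379617-35385290 to H2-Q7 at chr17:35439155-35443773. H2-T23 (chr17:36029773-36032855) and H2-T22 (chr17:36037128-36042747) lie farther along on the minus strand. Of the 8, H2-Q5 (chr17:35394126-35397800, plus strand) is not annotated as protein-coding in this strain: GENCODE lists it as a polymorphic pseudogene and RefSeq as a transcribed pseudogene.

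The upstream sequence of these genes is shown because it holds the elements through which interferon signalling is known to reach class I transcription. RefSeq (GRCm38.p6) gave the sequence before the start of 7 of the 8 genes, H2-Q5 being the exception. Each line shows 30 bases on the strand of the gene, ending at the interferon element, with every letter that matched a searched motif in capitals. For H2-K1, H2-D1 and H2-T23 other annotated transcripts start upstream of the stretch shown.
H2-K1: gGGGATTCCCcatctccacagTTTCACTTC
H2-D1: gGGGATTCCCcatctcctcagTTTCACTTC
H2-Q4: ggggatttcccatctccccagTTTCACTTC
H2-Q6: gGGGATTCCCcatctccccagTTTCACTTC
H2-Q7: tgGGGATTCCCatctccccagTTTCACTTC
H2-T22: agagtccctaATTGGcttagtTTCACTTTC
H2-T23: atgaaaagggatcctactgctTTCTCTTTC
The stretch lies at chr17:34000429-34000458 (minus strand) for H2-K1, chr17:35262923-35262952 (plus) for H2-D1 and chr17:35379443-35379472 (plus) for H2-Q4. It lies at chr17:35424677-35424706 (plus) for H2-Q6, chr17:35439021-35439050 (plus) for H2-Q7, chr17:36042924-36042953 (minus) for H2-T22 and chr17:36032816-36032845 (minus) for H2-T23.

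Motifs were searched on both strands in the 250 bases before each start, and the matches within a promoter did not overlap. The κB motif GGGATTCCC, bound by NF-κB proteins, was found in H2-K1, H2-D1, H2-Q6 and H2-Q7, and in 0.311% of the 27025 promoters in the table. The interferon element GAANNGAAA, read on the opposite strand in the lines above, was found in H2-K1, H2-D1, H2-Q4, H2-Q6 and H2-Q7, and in 6.34% of all promoters. A related form with the longer repeat first, GAAANNGAA, was found in H2-T22 and H2-T23, and in 7.16% of all promoters. The CRE core TGACG was found in H2-K1, H2-D1, H2-Q4, H2-Q7 and H2-T22, against 17.9% of all promoters, and CCAAT in all 7, against 34.5%. Such matches describe the letters in these windows and not binding. H2-Q6 and H2-Q7, whose promoters held both the κB motif and the interferon element, had almost no counts.

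H2-Q6 had 0 counts in every library. H2-Q7, which encodes a Qa-2 antigen, had 1 count in the Jak1 KO libraries, in replicate 6, and 0 in the wt libraries. A count of 0 allows a level of up to 0.0305 CPM in the Jak1 KO group, for H2-Q6. In the wt group it allows up to 0.0261 CPM for either gene (3 counts over the group total, counting error only). These limits hold only if reads of H2-Q6 and H2-Q7 were assigned to their own rows. These values refer to reads the authors could assign, and the chains resemble each other. Of all 50-base windows in the annotated transcripts, 68.0% of those in H2-Q6 and 73.6% of those in H2-Q7 occurred in no other annotated gene. The share was 63.6% in H2-Q5, where 25.5% of the windows also occurred in H2-Q7, and 65.5% in H2-T22, where 31.2% also occurred in its neighbour H2-T10. It was 90.4% in H2-K1, 87.2% in H2-D1, 86.4% in H2-T23 and 78.2% in H2-Q4. At 100 bases the shares ranged from 86.0% in H2-Q5 to 99.04% in H2-K1. The sources used here give neither the read length nor the treatment of reads with several matches. Values for H2-Q5, H2-Q6, H2-Q7 and H2-T22, the counts of 0 included, are therefore uncertain to that extent. Exons of H2-Q4 and H2-T22 also overlap antisense genes over 19.1% and 29.4% of their length, and without a stated strand setting reads of the 2 strands cannot be told apart.

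**Figure D1:**
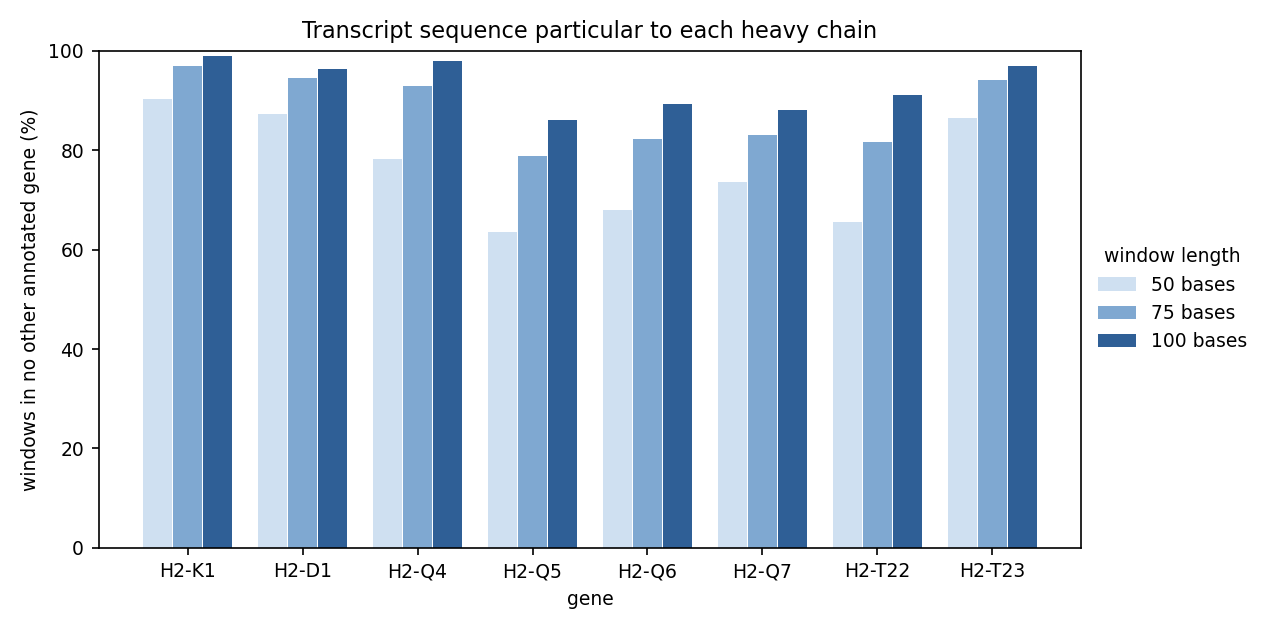
Share of windows in the annotated transcripts of each heavy chain (vertical axis, percent) that occurred in no other annotated gene, for windows of 50, 75 and 100 bases. H2-Q5 had the lowest share at each length (63.6% at 50 bases) and H2-K1 the highest (90.4% at 50 bases).

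Per exon length, H2-K1 was the most abundant of the 8 in every group. In VD libraries it averaged 352 ± 19.1 CPM per kilobase of exon in Jak1 KO and 652 ± 45.6 in wt (SD, n = 3 each). H2-D1 followed with 101 ± 4.66 in Jak1 KO and 170 ± 7.42 in wt. Then came H2-Q4 with 60.7 ± 2.99 in Jak1 KO and 117 ± 15.1 in wt, and H2-T23 with 61.9 ± 5.99 in Jak1 KO and 92.4 ± 6.25 in wt. H2-Q4 was above H2-T23 in all 3 wt libraries, whereas their ranges overlapped in Jak1 KO. H2-Q5 had 10.02 ± 2.27 in Jak1 KO and 27.0 ± 3.18 in wt, and H2-T22 had 0.523 ± 0.341 in Jak1 KO and 0.972 ± 0.195 in wt. All other neighbours in the VD order were separated in every library of their group.

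In ZL libraries the order changed at H2-Q4. H2-K1 had 840 ± 428 CPM per kilobase in Jak1 KO and 958 ± 107 in wt, and H2-D1 had 351 ± 165 in Jak1 KO and 393 ± 42.0 in wt. Below it came H2-T23, with 148 ± 81.1 in Jak1 KO, where its range overlapped that of H2-D1, and 164 ± 19.2 in wt. H2-Q5 was next with 17.1 ± 2.17 in Jak1 KO and 36.3 ± 2.42 in wt, above H2-Q4 with 5.29 ± 2.36 in Jak1 KO and 8.30 ± 0.695 in wt. H2-T22 was last again, at 0.297 ± 0.128 in Jak1 KO and 0.612 ± 0.0616 in wt.

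The H2-Q4 level was the widest difference between name sets. On the CPM scale it was 14.1 times as high in VD as in ZL among wt libraries and 11.5 times as high among Jak1 KO libraries. A wt mean at least 10 times as high in VD as in ZL was seen in 1.37% of the 13184 tested genes. The other counted members were nearer: the wt mean in ZL was 1.47 times that in VD for H2-K1, 2.31 times for H2-D1, 1.77 times for H2-T23, 1.34 times for H2-Q5 and 0.629 times for H2-T22. The VD libraries also differed in composition, since the ribosomal RNA gene Rn45s took 14.8% to 22.6% of their counts and 0.511% to 0.950% of those in ZL libraries. The summed neutrophil markers (6 of the 7 listed were in the table, none at 0 in every library) had 500.2 to 1009 CPM in VD Jak1 KO libraries and 340.03 to 1008 CPM in VD wt libraries. In ZL libraries the same markers had 8.88 to 13.1 CPM in Jak1 KO and 6.63 to 9.502 CPM in wt. The part of either in these differences was not tested. The sources used here do not say whether both name sets were counted with the same settings, so for H2-Q4 a difference in counting and one in RNA level cannot be told apart.

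**Figure D2:**
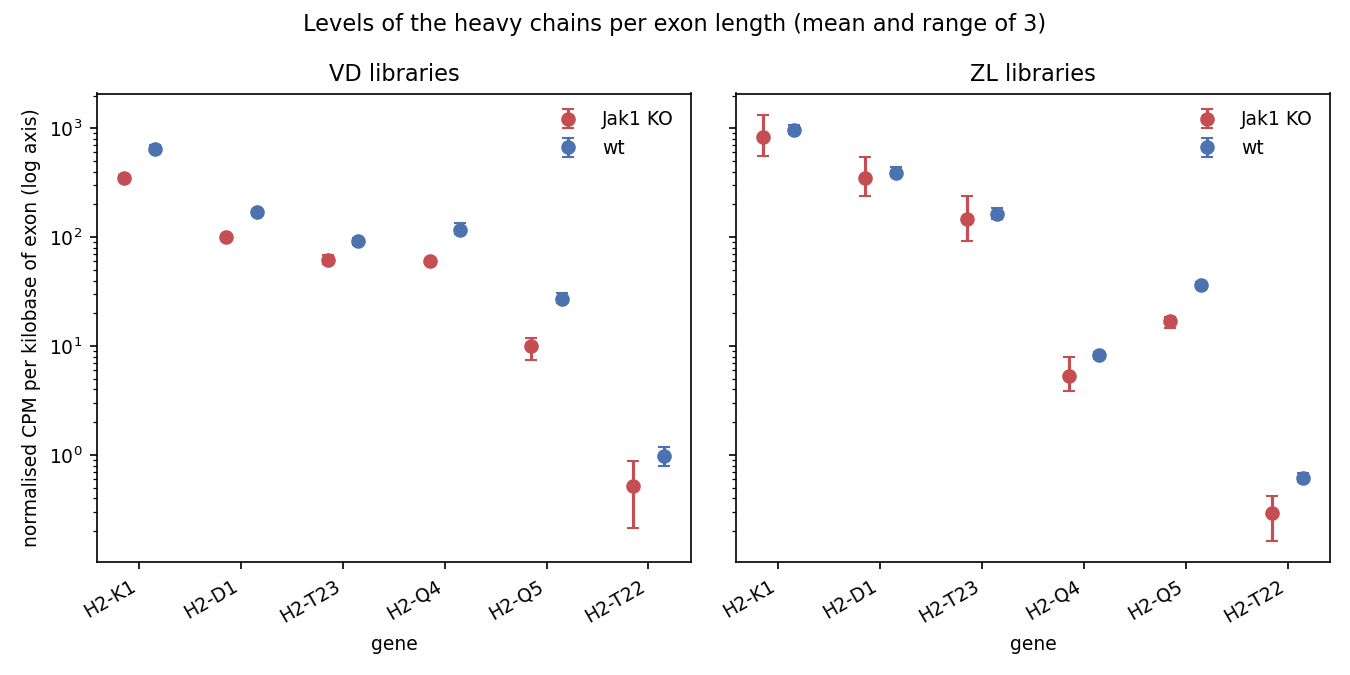
Level of each counted heavy chain in CPM per kilobase of exon (log axis), with Jak1 KO left of wt, in VD libraries and in ZL libraries. Points are means of 3 libraries and bars the range. H2-Q4 lay near H2-T23 in VD libraries and below H2-Q5 in ZL libraries.

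Whether loss of Jak1 goes with lower class I expression was asked of each chain over all 12 libraries, with name set as a term, and within each name set. Of the 8 genes, 6 passed the filter on low counts. Over the 12 libraries only H2-Q5 passed the test, and it was lower in Jak1 KO; the log2 fold change was below 0 for all 6. At an adjusted p of 0.05, 0.432% of the 13184 tested genes were lower, and 50.9% had a fold change below 0. The median log2 fold change of the 6 was -0.67, and that of all tested genes was -0.01. Within VD libraries 5 of the 6 fell, against 0.728% of all genes, and within ZL libraries 0 of the 6 passed, as did 0% of all genes.

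H2-K1 is one of the 2 classical chains. In VD libraries it had 1037, 978 and 1090 CPM in Jak1 KO, against 2065, 1807 and 1874 CPM in wt. In ZL libraries it had 3912, 1862 and 1629 CPM in Jak1 KO, against 2596, 3174 and 2674 CPM in wt. Each Jak1 KO library but replicate 4 was below all wt libraries of the same set, and replicate 4 was above all wt libraries. The log2 fold change over 12 libraries was -0.54 (SE 0.21, 95% interval -0.99 to -0.09, adjusted p = 0.825, edgeR). In VD libraries alone H2-K1 fell by 0.85 (SE 0.08, adjusted p = 2.94e-05, edgeR), or 1.80-fold.

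H2-D1, the other classical chain, followed the same libraries. It had 263, 246 and 269 CPM in VD Jak1 KO libraries, against 460, 422 and 435 CPM in VD wt libraries. In ZL libraries it had 1394, 710 and 612 CPM in Jak1 KO, against 961, 1138 and 942 CPM in wt. The groups were apart in VD, and in ZL replicate 4 alone was above all wt libraries while the other two were below them. The log2 fold change over 12 libraries was -0.46 (SE 0.20, adjusted p = 0.901, edgeR), and in VD H2-D1 fell by 0.72 (SE 0.08, adjusted p = 0.000178, edgeR). H2-K1 had 3.99 ± 0.0525 times the counts of H2-D1 in VD Jak1 KO libraries and 4.36 ± 0.115 times in VD wt libraries, and the ranges did not overlap. In ZL libraries the ratio was 2.70 ± 0.0967 in Jak1 KO and 2.78 ± 0.0698 in wt, and they overlapped (SD, n = 3 each). How often the ratios of other gene pairs were apart in this way was not measured.

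H2-T23 encodes Qa-1, the ligand that presents leader peptides of other class I chains to an inhibitory receptor of natural killer cells. It had 176, 163 and 197 CPM in VD Jak1 KO libraries, against 283, 270 and 248 CPM in VD wt libraries. In ZL libraries it had 697, 322 and 267 CPM in Jak1 KO, against 457, 535 and 427 CPM in wt. As with the classical chains, only replicate 4 was above the wt libraries. The log2 fold change was -0.36 over 12 libraries (SE 0.21, adjusted p = 0.945, edgeR). In VD H2-T23 fell by 0.54 (SE 0.09, adjusted p = 0.00395, edgeR), the smallest size among the 5 that passed, and without wt replicate 1 the adjusted p in VD was 0.0565 (edgeR). Relative to H2-K1, the counts of H2-T23 were 17.2 ± 0.746% in VD Jak1 KO libraries and 14.0 ± 0.893% in VD wt libraries, and the ranges did not overlap. In ZL they were 17.2 ± 0.733% in Jak1 KO and 16.8 ± 0.807% in wt, and overlapped. For this ratio too, how often other gene pairs were apart was not measured.

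H2-Q4 is a non-classical gene of the Q region. It had 158, 150 and 165 CPM in VD Jak1 KO libraries, against 348, 281 and 280 CPM in VD wt libraries. In ZL libraries it had 20.8, 10.02 and 10.35 CPM in Jak1 KO, against 19.6, 21.9 and 23.1 CPM in wt. Replicate 4 was inside the wt range here, and the other Jak1 KO libraries were below it. The log2 fold change was -0.80 over 12 libraries (SE 0.18, 95% interval -1.19 to -0.41, adjusted p = 0.1001, edgeR). In VD H2-Q4 fell by 0.90 (SE 0.09, adjusted p = 5.55e-05, edgeR).

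H2-Q5, the gene annotated as a pseudogene, separated the genotypes in both name sets. It had 16.9, 11.9 and 19.0 CPM in VD Jak1 KO libraries, against 48.8, 40.4 and 39.7 CPM in VD wt libraries. In ZL libraries it had 29.8, 23.3 and 28.6 CPM in Jak1 KO, against 55.5, 55.5 and 62.2 CPM in wt. All 6 Jak1 KO libraries, replicate 4 included, were below every wt library of either name set. H2-Q5 fell by 1.25 over 12 libraries (SE 0.16, 95% interval -1.60 to -0.91, adjusted p = 0.00111, edgeR), or 2.39-fold. It fell by 1.39 in VD alone (SE 0.19, adjusted p = 0.000703, edgeR). In ZL alone its log2 fold change was -1.08 (SE 0.26), with an unadjusted p of 0.00345 and an adjusted p of 0.946 (edgeR). Without the name set term the log2 fold change was -1.22 and the adjusted p 0.1504 (edgeR).

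H2-T22 encodes a ligand of a subset of γδ T cells. Its counts were low, at 6 to 45 in Jak1 KO and 24 to 70 in wt libraries. It had 3.04, 0.731 and 1.59 CPM in VD Jak1 KO libraries, against 3.25, 2.69 and 4.02 CPM in VD wt libraries. In ZL libraries it had 1.06, 1.43 and 0.557 CPM in Jak1 KO, against 2.02, 2.33 and 1.92 CPM in wt. The genotypes were apart in ZL, and in VD Jak1 KO replicate 1 was inside the wt range. The log2 fold change was -0.95 over 12 libraries (SE 0.37, 95% interval -1.75 to -0.16, adjusted p = 0.825, edgeR). In VD it was -0.83 (SE 0.62, adjusted p = 0.604, edgeR). That value was -1.45 without Jak1 KO 1 and -0.48 without Jak1 KO 2, and neither passed.

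**Figure D3:**
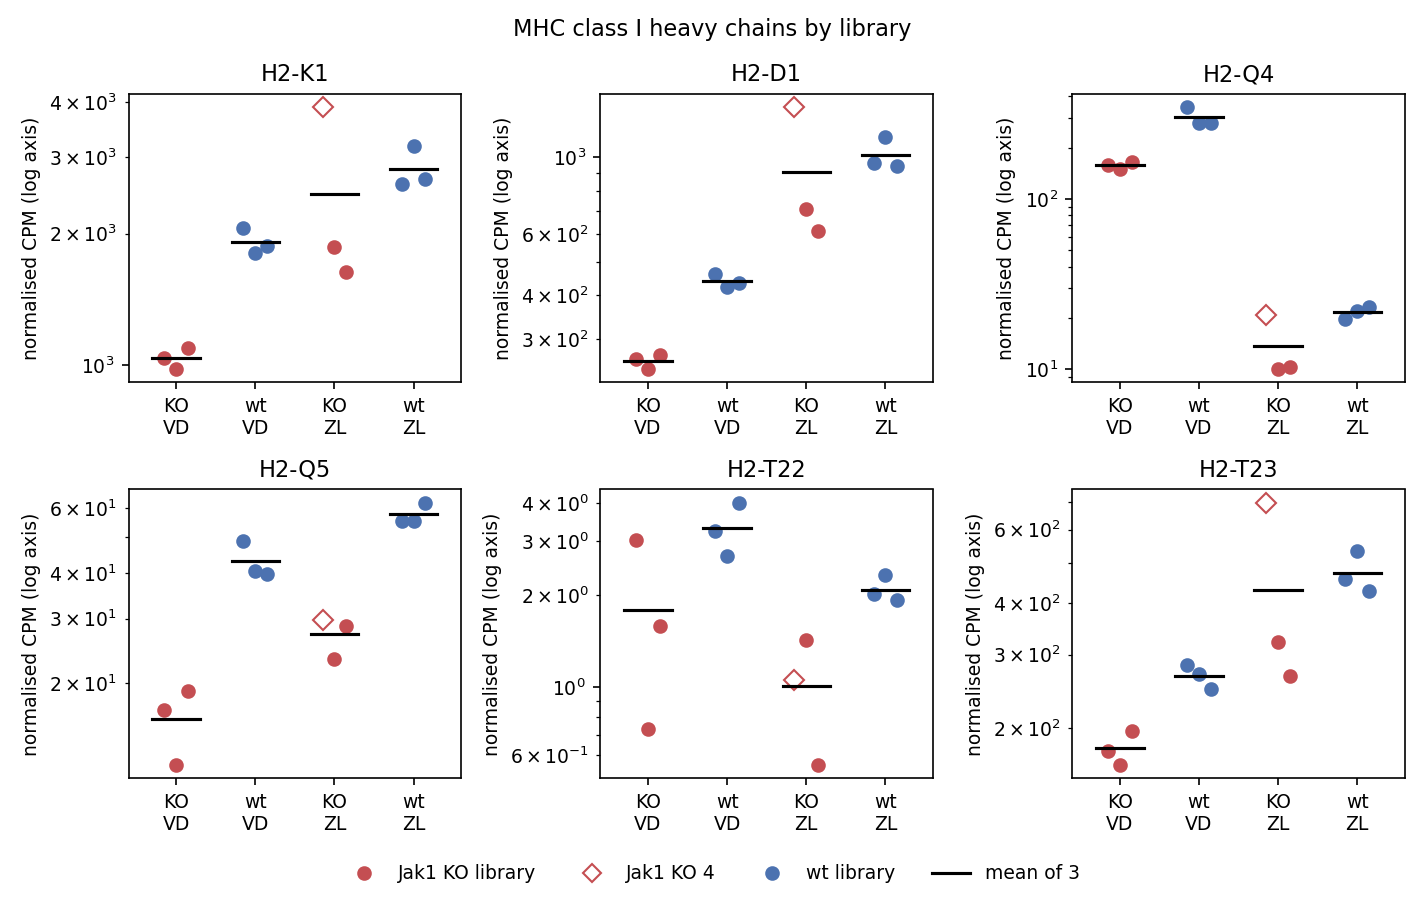
Normalised CPM (log axis) of the 6 counted heavy chains in each library, in the order Jak1 KO then wt within VD and within ZL, with the mean of 3 as a line and Jak1 KO 4 as an open diamond. For H2-K1, H2-D1 and H2-T23 the diamond is above every wt library. For H2-Q5 all Jak1 KO libraries (11.9 to 29.8 CPM) are below all wt libraries (39.7 to 62.2 CPM).

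Every Jak1 KO library was below every wt library in VD for 5 of the 6 chains, H2-T22 being the exception, and for 13.2% of the 13184 tested genes. In ZL this held for H2-Q5 and H2-T22, and for 2.34% of all genes. In both name sets at once it held for H2-Q5 alone of the 6, and for 0.963% of all genes. In ZL alone the log2 fold changes of the other chains were -0.18 for H2-K1, -0.16 for H2-D1, -0.14 for H2-T23, -0.65 for H2-Q4 and -1.03 for H2-T22. edgeR called 0 of the 6 and 0 of all genes in ZL at an adjusted p of 0.05, with 1 of the 6 and 211 of all genes (1.6%) at an unadjusted p under 0.05. DESeq2 called 0 of the 6 and 45 of all genes there.

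The difference of the genotype effect between the name sets, ZL minus VD, was tested as an interaction. It was 0.70 on the log2 scale for H2-K1 (95% interval -0.13 to 1.52), 0.60 for H2-D1 (-0.20 to 1.40), 0.44 for H2-T23 (-0.47 to 1.34), 0.28 for H2-Q4 (-0.52 to 1.08), 0.34 for H2-Q5 (-0.34 to 1.03) and -0.16 for H2-T22 (-1.80 to 1.47). None of the 6 passed at an adjusted p of 0.05 in edgeR or DESeq2, and 0 of the 6 had an unadjusted p under 0.05 in edgeR. Over all genes edgeR called 0, with 182 (1.38%) at an unadjusted p under 0.05, and DESeq2 called 1. Each of the 6 intervals included 0. Without Jak1 KO 4 the difference was 0.17 for H2-K1, 0.12 for H2-D1, -0.13 for H2-T23, -0.16 for H2-Q4, 0.25 for H2-Q5 and -0.19 for H2-T22, and 0 of the 6 passed.

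Without Jak1 KO 4, 5 of the 6 chains fell, against 0.569% of all genes. This library was chosen with its high values for 3 of the chains known, so the shift of those 3 is largely fixed by the choice. Without it H2-K1 fell by 0.77 (SE 0.10, adjusted p = 0.00152), H2-D1 by 0.67 (SE 0.10, adjusted p = 0.00663) and H2-T23 by 0.60 (SE 0.11, adjusted p = 0.0354, edgeR for all 3). H2-Q4 fell by 0.97 (SE 0.10, adjusted p = 0.000312) and H2-Q5 by 1.28 (SE 0.14, adjusted p = 0.000466, edgeR). For H2-T22 the log2 fold change was -0.92 (SE 0.40, adjusted p = 0.790, edgeR). DESeq2 on all 12 libraries called H2-Q5 alone of the 6, against 0.747% of genes. limma-voom with quality weights called 5 of the 6 lower, against 1.32% of genes. Its weights were 0.165 for Jak1 KO 4, 0.215 for wt 6, 0.359 for Jak1 KO 6 and 0.406 for wt 4. They were 1.32 for Jak1 KO 5, 1.74 for wt 5 and 1.61 to 3.18 for VD libraries, so these calls rest mostly on VD libraries. With an offset for the trend of each library on exon length and all 12 libraries kept, H2-Q4 fell by 0.86 (adjusted p = 0.00549, edgeR) and H2-K1 did not pass, at -0.57 on the log2 scale (adjusted p = 0.343, edgeR).

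**Figure D4:**
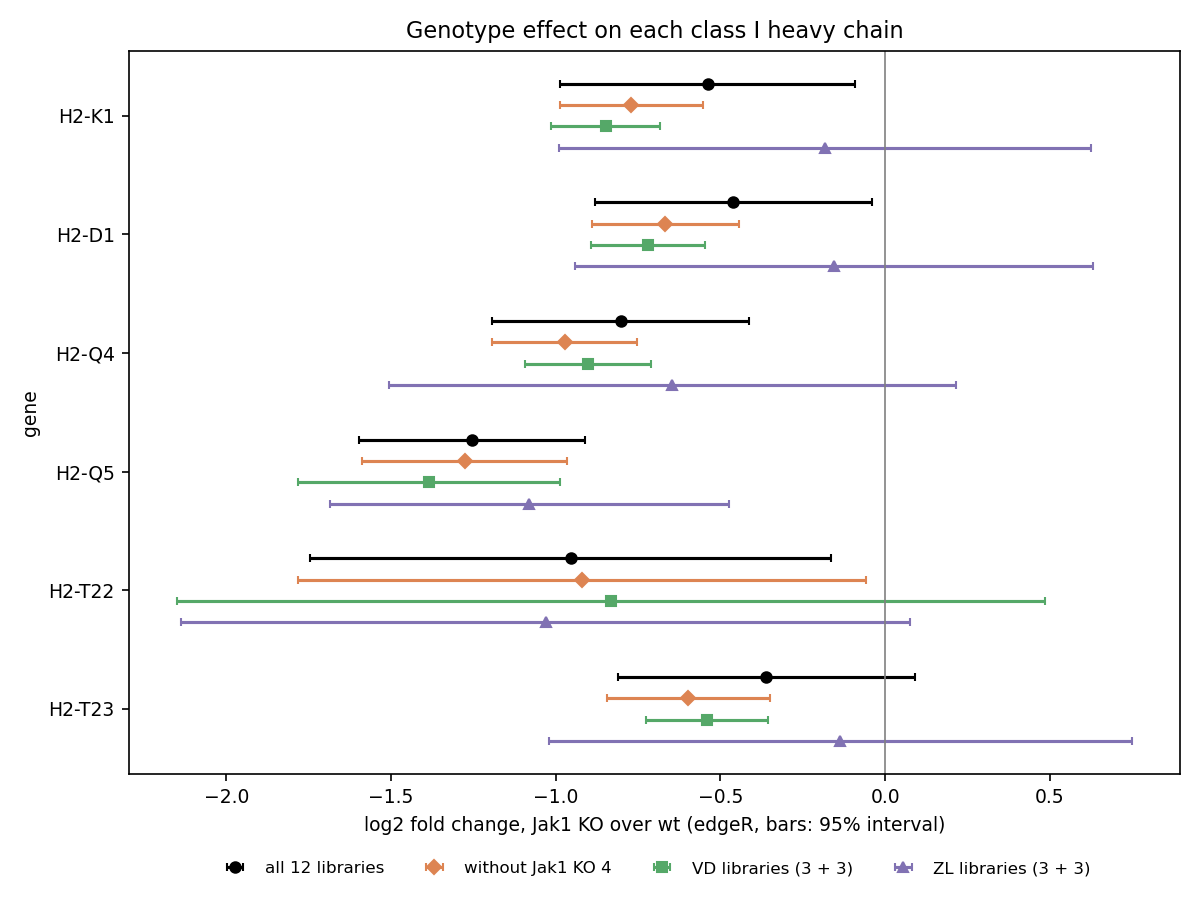
Log2 fold change of each heavy chain, Jak1 KO over wt (edgeR), with 95% intervals, over all 12 libraries, without Jak1 KO 4, in VD libraries and in ZL libraries. The ZL intervals of all chains but H2-Q5 include 0, and the H2-Q5 interval is below 0 in all 4 fits.

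Markers of other cells moved with Jak1 KO 4. The summed macrophage markers (5 of the 6 listed were in the table, none at 0, led by Lyz2) had 981 CPM in this library, 246 to 472 CPM in the other Jak1 KO libraries and 236 to 521 CPM in wt libraries. The summed B cell markers (5 of 5 in the table, none at 0 in this library) had 144 CPM, nearly all from Cd79b at 141 CPM, against 28.0 to 54.9 CPM in the other Jak1 KO libraries and 28.2 to 70.3 CPM in wt libraries. The B cell markers Cd79a, Ms4a1 and Pax5 had 0.829, 0.151 and 0.0754 CPM in Jak1 KO 4. Of the macrophage markers, Lyz2 (950.0 CPM), Cd68 (23.7 CPM) and C1qa (4.97 CPM) were each highest of the 12 libraries in Jak1 KO 4, whereas Csf1r, at 0.904 CPM, was lowest there and Mrc1, at 1.06 CPM, was below the wt libraries (1.66 to 10.8 CPM). The LT-HSC markers summed to 1345 CPM in Jak1 KO 4, against 1936 to 3520 CPM in the other Jak1 KO libraries. Kit (197 CPM), Mecom (58.1 CPM), Tek (24.3 CPM) and Fgd5 (17.1 CPM) were each lowest of the 12 libraries in Jak1 KO 4. Procr (271 CPM) and Hoxb5 (31.8 CPM) were highest there, and Slamf1, Hlf and Meis1 were inside the wt range. Summed megakaryocyte and dendritic cell markers were apart between genotypes in each name set, and the erythroid sum was apart in VD libraries alone. The megakaryocyte markers (Pf4, Gp1ba, Gp9, Itga2b and Ppbp) summed to 780 to 1050 CPM in wt libraries. Their sum was 714 CPM in Jak1 KO 4 and 390 to 479 CPM in the other Jak1 KO libraries. By the test 1 of the 5 was lower, against 0.432% of all tested genes. Itga2b had 130 to 376 CPM in Jak1 KO and 383 to 730 CPM in wt. The ranges of Pf4, Gp1ba, Gp9 and Ppbp overlapped between genotypes. Gp9 (113 CPM) and Ppbp (39.9 CPM) were highest of the 12 libraries in Jak1 KO 4. The erythroid markers (6 of 6 in the table, 1 at 0 in every library) summed to 47.0 to 302 CPM in wt libraries. Their sum was 53.8 CPM in Jak1 KO 4 and 28.3 to 45.3 CPM in the other Jak1 KO libraries. In ZL libraries the wt sum was 47.0 to 61.4 CPM, so Jak1 KO 4 was inside the wt range. The dendritic cell markers (6 of 6 in the table) summed to 46.0 to 64.5 CPM in VD Jak1 KO libraries, against 31.7 to 42.7 CPM in VD wt libraries. In ZL the dendritic sum was 38.8 to 49.3 CPM in Jak1 KO and 29.5 to 36.9 CPM in wt. Most of that sum was Flt3, also a gene of early progenitors. Flt3 had 35.6 to 52.1 CPM in Jak1 KO and 25.2 to 33.4 CPM in wt. No erythroid, dendritic or T cell marker passed the test. The part of these markers in the class I values, and of the length shift in those of Jak1 KO 4, was not tested.

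Grouped by class, the classical chains held 78.5 ± 0.495% of the summed class I counts in VD Jak1 KO libraries and 79.3 ± 0.787% in VD wt libraries. In ZL they held 87.8 ± 0.172% in Jak1 KO and 87.3 ± 0.339% in wt (SD, n = 3 each). The median log2 fold change over 12 libraries was -0.50 for the 2 classical chains and -0.88 for the 4 non-classical chains tested, and in VD it was -0.78 and -0.87. The mean log2 CPM of classical minus non-classical chains was higher in Jak1 KO than in wt by 0.34 on average over the name sets, by 0.18 in VD and by 0.51 in ZL. This difference weighs the low H2-T22 as much as H2-T23. When the CPM of each class was summed first, the same difference was -0.0013. Before that summing, classical minus non-classical chains averaged 4.15 ± 0.285 in VD Jak1 KO libraries and 3.97 ± 0.0366 in VD wt libraries. In ZL the values were 6.15 ± 0.265 in Jak1 KO and 5.64 ± 0.0895 in wt (SD, n = 3 each). In VD, Jak1 KO 1 (3.90) was below all wt libraries (3.94 to 4.01), and Jak1 KO 2 (4.46) and Jak1 KO 3 (4.08) were above them. The summed level of the 8 genes was 1648 ± 96.8 CPM in VD Jak1 KO libraries and 2970 ± 208 CPM in VD wt libraries, a ratio of 0.555. In ZL it was 3844 ± 1925 CPM in Jak1 KO and 4383 ± 472 CPM in wt, a ratio of 0.877. Over all 12 libraries the ratio was 0.747, and without Jak1 KO 4 it was 0.567.

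The other genes that build a class I molecule were followed on a list of 15, all tested. Of these, edgeR called 1 lower over 12 libraries, against 0.432% of all tested genes, and 0 higher. In VD libraries 6 fell, against 0.728% of all genes. In either direction over 12 libraries DESeq2 called 1 of the 15, against 0.747% of genes lower and 0.214% higher. In either direction limma-voom called 6 of the 15, against 1.32% lower and 0.349% higher. The gene that passed was Tap1, a subunit of the peptide transporter, at 126 ± 20.5 CPM in Jak1 KO and 257 ± 22.3 CPM in wt (SD, n = 6 each). It fell by 1.04 (SE 0.14, adjusted p = 0.00169, edgeR), and in Jak1 KO 4 it had 91.8 CPM, the opposite side of the wt libraries from H2-K1 in the same library. B2m, the light chain, averaged 961 CPM in VD Jak1 KO libraries and 1725 CPM in VD wt libraries, where it fell by 0.80 (adjusted p = 2.94e-05, edgeR). Over 12 libraries its log2 fold change was -0.52 (SE 0.22, adjusted p = 0.872, edgeR), with 5207 CPM in Jak1 KO 4. Without that library B2m fell by 0.75 (adjusted p = 0.0217, edgeR), so that 2 of the 15 were lower, against 0.569% of all genes. For Tapbp, which encodes the loading factor tapasin, the log2 change was -0.34 (SE 0.12, adjusted p = 0.662, edgeR), and for Calr, an endoplasmic reticulum chaperone, it was -0.33 (SE 0.14, adjusted p = 0.902, edgeR).

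Of 18 regulators of class I transcription, all tested, edgeR called 1 lower over 12 libraries and 0 higher, and 17 did not pass. Among all tested genes 0.432% were lower. In either direction DESeq2 called 4 of the 18, against 0.747% of genes lower and 0.214% higher. In either direction limma-voom called 3, against 1.32% lower and 0.349% higher. Without Jak1 KO 4 edgeR called 2 lower, against 0.569% of all genes. Irf9, a DNA-binding subunit of the type I interferon complex, had 47.0 ± 7.42 CPM in Jak1 KO and 123 ± 36.5 CPM in wt (SD, n = 6 each) and fell by 1.35 (SE 0.14, adjusted p = 0.00034, edgeR). For Irf9, all 6 Jak1 KO libraries were below all wt libraries of the same set, as for 0.963% of all tested genes. Nlrc5, the class I transactivator, averaged 80.1 CPM in VD Jak1 KO libraries and 192 CPM in VD wt libraries and fell there by 1.22 (adjusted p = 1.15e-05, edgeR). In ZL libraries Nlrc5 averaged 28.1 CPM in Jak1 KO and 82.2 CPM in wt. The ZL ranges overlapped, with 47.2 CPM in Jak1 KO 6 and 40.1 CPM in wt 5. Over 12 libraries the log2 fold change of Nlrc5 was -1.40 (SE 0.31, adjusted p = 0.0898, edgeR). Irf1 averaged 95.2 ± 22.3 CPM in Jak1 KO and 152 ± 46.2 CPM in wt, with a log2 fold change of -0.66 (SE 0.14, adjusted p = 0.0621, edgeR). Without Jak1 KO 4 it fell by 0.66 (adjusted p = 0.0448, edgeR). Jak1 KO 4, the library with the highest H2-K1, had 14.8 CPM of Nlrc5. The part of its length shift of -1.27 in that value was not tested.

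**Figure D5:**
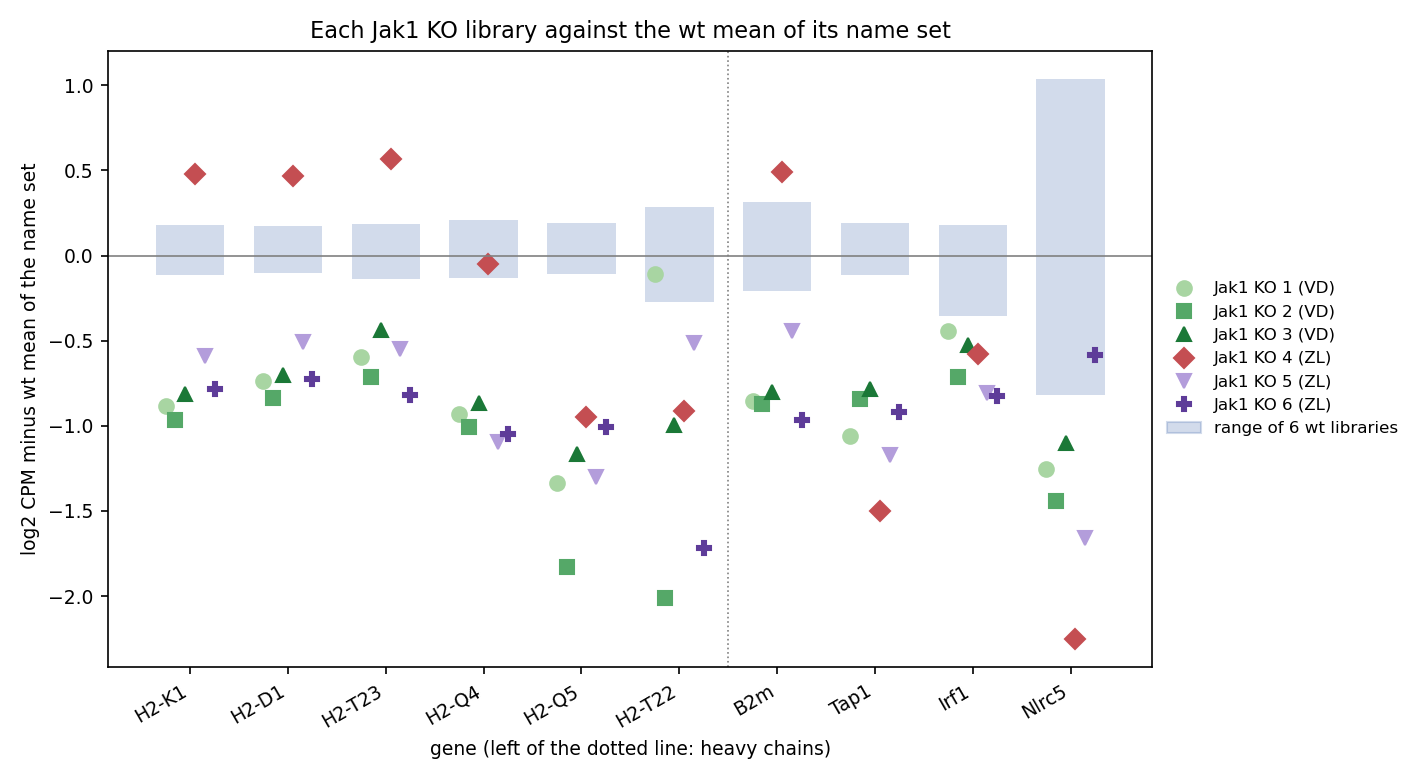
Log2 CPM of each Jak1 KO library minus the mean of the wt libraries of its name set (vertical axis), for the 6 counted heavy chains and 4 genes of assembly or regulation. Shaded boxes give the range of the 6 wt libraries around the same means. Jak1 KO 4 lies above the box for H2-K1 (0.48), H2-D1 (0.47), H2-T23 (0.57) and B2m (0.49), inside it for H2-Q4, and below it for H2-Q5 (-0.95), H2-T22 (-0.91), Tap1 (-1.503), Irf1 (-0.58) and Nlrc5 (-2.25).

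Set against the wt mean of its own name set, a Jak1 KO library other than replicate 4 had 51.0% to 66.1% of the H2-K1 level and 56.0% to 70.1% of the H2-D1 level. For H2-T23 the range was 56.4% to 73.8%, and for H2-Q4 it was 46.5% to 54.6%. Jak1 KO 4 had 139% of the wt level of H2-K1, 138% of that of H2-D1, 147% of that of H2-T23 and 96.6% of that of H2-Q4. For H2-Q5 the 6 Jak1 KO libraries had 27.8% to 51.6% of the wt level, with replicate 4 the highest.

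On the list of interferon receptors and kinases (Ifnar1, Ifnar2, Ifngr1, Ifngr2, Jak1, Jak2 and Tyk2) edgeR called 0 of 7 at an adjusted p of 0.05, with 0 at an unadjusted p under 0.05, against 5.06% of all tested genes, and DESeq2 called 0. Jak1 averaged 422 ± 160 CPM in Jak1 KO and 373 ± 45.3 CPM in wt, with a log2 fold change of 0.18 (SE 0.20, adjusted p = 0.945, edgeR). Jak2, which serves the type II receptor, averaged 93.5 ± 56.5 CPM in Jak1 KO and 118 ± 56.2 CPM in wt, and its log2 fold change of -0.51 (SE 0.31) did not pass (adjusted p = 0.945, edgeR). Tyk2 had a log2 fold change of -0.31 (SE 0.31) and Ifngr2 one of 0.28 (SE 0.29).

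The list of further H2 class I genes named 27, of which 24 were in the table, 7 were at 0 in every library and 7 were tested. edgeR called 0 of the 7 over 12 libraries, with 2 of the 7 at an unadjusted p under 0.05 (5.06% of all genes). In either direction DESeq2 called 1, against 0.747% of genes lower and 0.214% higher. In either direction limma-voom called 3, against 1.32% lower and 0.349% higher. All 7 had a log2 fold change below 0, as had 50.9% of all tested genes, with a median of -0.42. H2-T10, the neighbour of H2-T22 with which it shares sequence, averaged 21.6 CPM in VD Jak1 KO libraries and 31.1 CPM in VD wt libraries. In ZL libraries H2-T10 averaged 9.46 CPM in Jak1 KO and 17.9 CPM in wt. All 6 Jak1 KO libraries were below all wt libraries of the same set for H2-T10, as for 0.963% of all tested genes. Its log2 fold change was -0.72 (SE 0.15, adjusted p = 0.0643, edgeR). For H2-T24 the log2 change was -0.54 (SE 0.17, adjusted p = 0.510, edgeR). H2-T3 had one of -0.83 (SE 0.39) and H2-K2 one of -0.42 (SE 0.27). H2-M3, which presents formylated peptides, averaged 21.1 CPM in VD Jak1 KO libraries and 28.1 CPM in VD wt libraries, with a log2 fold change over 12 libraries of -0.26 (SE 0.19).

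Class I-like genes outside the H2 region went on a list of 16, of which 15 were in the table, 2 at 0 in every library, and 7 were tested. Here edgeR called 0 of 7, with 0 at an unadjusted p under 0.05 (5.06% of all genes), and DESeq2 called 0. Of the 7, 0 had a fold change below 0, against 50.9% of all tested genes. Mr1, which presents vitamin metabolites, had a log2 fold change of 0.17 (SE 0.16) and Cd1d1, which presents lipids, one of 0.18 (SE 0.15). Cd1d2 had 0.40 (SE 0.27), and Fcgrt, the neonatal Fc receptor chain, 0.39 (SE 0.21), the highest of its Jak1 KO values being 114 CPM in replicate 4. The median of the 7 was 0.25.

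Likeness in pattern was measured over the 12 libraries as the root mean square difference of log2 CPM, each gene centred on its name set, among 9483 genes of at least 10 CPM. The libraries share depth and composition, so this describes these libraries. For H2-K1 the nearest gene was B2m at 0.09, followed by Psmb9 at 0.16, Sdf2l1 at 0.16, Psmb8 at 0.17 and Lgals9 at 0.18, where the median gene was at 0.54. The same 5 genes were nearest to H2-D1, with B2m at 0.10. Psmb8 and Psmb9 are subunits of the immunoproteasome. All 5 were above both group means in Jak1 KO 4, with 763 CPM of Psmb8 there against group means of 305 CPM in Jak1 KO and 340 CPM in wt. Nearest to the mean of the 4 non-classical chains were Batf2 at 0.21 and Rab27b, Irgm1 and Pdcd4 at 0.22. Among the members, H2-K1 and H2-D1 differed by 0.06, H2-D1 and H2-T23 by 0.09, H2-K1 and H2-T23 by 0.12, and H2-K1 and H2-Q4 by 0.18. H2-Q5 lay 0.32 from H2-Q4 and 0.45 from H2-K1, and H2-T22 lay 0.48 to 0.60 from each of the others.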

How the data were processed

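Per the labels' protocols, RNA was isolated with TRIzol and poly-A libraries were prepared by the TruSeq v2 protocol. The authors deposited 1 table of raw read counts per gene for 12 libraries; the submitters' processing notes name STAR 2.3.0e, featureCounts, Subread and mm10. The sources used here do not give the annotation, strand setting, read length or treatment of multiply matching reads. Columns were matched to samples through the sample descriptions, and groups came from the titles.

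Tests were run with edgeR 4.0.16 under R 4.3.3. The filter filterByExpr, given genotype, left 13184 of 23472 genes, library sizes were scaled by TMM, and genotype was tested with name set as a term by the quasi-likelihood F test, with Benjamini-Hochberg adjustment over all genes tested and a threshold of 0.05. Each name set was also fitted alone, and the difference between sets was tested as an interaction. Log2 fold changes are Jak1 KO over wt, and each SE is the absolute log2 value over the root of F. CPM uses TMM-scaled library sizes, and log2 CPM has a prior count of 2. Exon lengths and positions came from GENCODE M21 on GRCm38, the assembly of mm10 (23126 symbols matched, 1256 through an older symbol), and promoters from RefSeq. The test scripts were checked on simulated data.

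The alternatives were DESeq2 1.42.0 (size factors and Wald test), limma 3.58.1 voom with quality weights, upper quartile factors, 2 other filters, no name set term, a replicate block, library sizes without Rn45s, an offset for exon length, an adjusted p of 0.1, a log2 fold change of at least 1, and each library left out. The members, lists and tests were chosen with earlier results of these data known. The text names all 8 members, up to 4 tested genes per list with the smallest p (for further H2 genes also those of highest CPM), and the 5 nearest genes in pattern; marker genes in Jak1 KO 4, Psmb8 and Psmb9 roles, and genes in the closing part were chosen after their values were seen. A few genes were left out of the lists and are not reported here. Depth was 8989965 to 28701855 counts per library. Reads were counted without molecular identifiers, so floors cover counting error only.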

Additional observations from a re-analysis of the deposited data

Results flagged for a closer look

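The summed CPM of the 8 class I heavy chains in the 6 Jak1 KO libraries had a gap between its highest library and the next of 0.694 of the whole range, above Dixon's 95% critical value of 0.625. The highest library was Jak1 KO 4 at 6055 CPM, and the other Jak1 KO libraries had 1549 to 2929 CPM, against 2823 to 4927 CPM in wt libraries. Of 16 groups screened, 1 passed, and chance flags about 1 in 20. The 6 libraries span both name sets, whose levels differ.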

How the results depend on the processing

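Over 12 libraries 1 of the 6 tested chains was called by the test as reported. The count was 5 with limma-voom and quality weights, 5 without the 3 ZL libraries of largest length shift, namely Jak1 KO 4 and 6 and wt 6 (an alternative chosen after seeing the data), 2 with the exon-length offset (H2-Q4 and H2-Q5) and 0 without the name set term. Leaving out 1 library gave 1 to 5, with 5 only without Jak1 KO 4. In VD the count was 4 to 5 with 1 library left out. The class difference was -0.0013 from summed CPM and 0.26 to 0.40 with 1 library left out. In ZL with 1 library left out, the log2 fold change ran from -0.68 without Jak1 KO 4 to 0.050 without Jak1 KO 6 for H2-K1, from -0.61 to 0.066 for H2-D1 and from -0.68 to 0.12 for H2-T23, none called. The ZL minus VD difference ran from -0.52 without Jak1 KO 5 to 0.46 without Jak1 KO 1 for H2-T22 (0.14 without Jak1 KO 6), from -0.16 without Jak1 KO 4 to 0.47 for H2-Q4, and from -0.13 without Jak1 KO 4 to 0.69 for H2-T23. The cause was not tested. Over all genes, 58 were called over 12 libraries, 126 by DESeq2, 220 by limma-voom and 14 without the name set term. In VD 142 were called, 402 by DESeq2 and 62 to 354 with 1 library left out, and in ZL 0, with 45 by DESeq2. Whether replicate numbers pair the libraries was left undecided. Libraries of the same number had correlations of 0.04 to 0.67, and 6 of 12 libraries correlated best with their own number. With a replicate block edgeR called 1 chain over 12 libraries (72 genes), 5 in VD (402 genes) and 0 in ZL (9 genes). Of the other values for single chains, 332 kept direction and side of the threshold. Depth limits H2-T22, with 6 to 70 counts a library, and H2-Q6 and H2-Q7, at the floor.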

Other observations

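H2-Q8 and H2-Q2, neighbours of the Q genes above, were counted in ZL libraries and not in VD libraries. H2-Q8 had 63 counts in the ZL Jak1 KO libraries (14 to 25 each) and 179 in the ZL wt libraries (48 to 79 each), and 0 in all VD libraries. H2-Q2 had 10 counts in the ZL Jak1 KO libraries and 23 in the ZL wt libraries, and 0 in all VD libraries. Both were too low for the filter and were not tested, and H2-Q4 showed the opposite order of name sets. These genes were chosen after their values were seen. VD and ZL libraries did not overlap in CPM for 38.4% of the 13184 tested genes. How often a gene was at 0 in VD libraries alone was not measured.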
